A study of Mus musculus with 6 samples.

Results

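Cerebellar RNA of mice on a low-Mn or a normal-Mn diet was examined for 10 genes of iron uptake, storage, export and sensing, namely Trf, Tfrc, Steap3, Fth1, Ftl1, Slc40a1, Cp, Heph, Aco1 and Ireb2. They were chosen by name, as the core proteins that handle iron and partly share their carriers with manganese, and make up 10 of the 53715 mouse genes of the count table. All 10 were found by gene identifier in the GENCODE M21 annotation, and all 10 had enough counts to be tested. RNA was sequenced from male C57BL/6 mice, bought at 4 weeks of age and called adult in the labels, that had received for 2 weeks a purified diet with 0 ppm Mn by label (low-Mn, 3 mice) or 35 ppm Mn (normal-Mn, 3 mice). Each library was made from polyadenylated RNA of 1 whole cerebellum, and the labels name no transgene and no other treatment. The methods call the 3 mice of a group biological replicates, while a figure legend of the study calls the libraries technical triplicates. If they were technical, p-values measure only the spread between these libraries.

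Manganese and iron travel in part on the same proteins. Transferrin carries both metals, its receptor brings them into endosomes, the divalent metal transporter moves both across membranes, and ferroportin exports iron and has been described to export manganese. Inside the cell iron is held in ferritin, and when iron is scarce the iron regulatory proteins bind a hairpin, the iron-responsive element, which blocks translation when it lies in the 5′ UTR of an mRNA and protects the mRNA from decay when it lies in the 3′ UTR. In the brain, oligodendrocytes are known for high levels of transferrin and ferritin mRNA.

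The hairpins are shown first, because through them the iron regulatory proteins act on the mRNAs that carry them. The annotated UTRs were searched on the transcript strand for a hairpin with an unpaired C, a stem of 5 paired bases (G-U pairs allowed) and a loop of 6 bases that reads CAGTGN. It was found in 4 of the 10 members. Each line below gives 30 bases from the GRCm38 genome through the GENCODE M21 transcripts, 5′ to 3′, with the loop in capitals.
Fth1, 5′ UTR, chr19:9982731-9982760, plus strand: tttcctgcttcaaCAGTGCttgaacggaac
Ftl1, 5′ UTR, chr7:45459779-45459808, minus strand: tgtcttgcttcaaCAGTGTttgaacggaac
Slc40a1, 5′ UTR, chr1:45925465-45925494, minus strand: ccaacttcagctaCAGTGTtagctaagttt
Tfrc, 3′ UTR, chr16:32631218-32631247, plus strand: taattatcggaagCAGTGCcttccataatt
Tfrc, 3′ UTR, chr16:32631597-32631626, plus strand: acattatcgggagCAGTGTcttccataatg
Tfrc, 3′ UTR, chr16:32631662-32631691, plus strand: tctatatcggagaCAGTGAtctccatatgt
Tfrc, 3′ UTR, chr16:32631709-32631738, plus strand: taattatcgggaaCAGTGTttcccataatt

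The ferritin, ferroportin and receptor hairpins are rare among mouse mRNAs. Of 20661 protein-coding genes with an annotated 5′ UTR, 31 (0.150%) held such a hairpin there, and of 21066 with a 3′ UTR, 144 (0.684%) held one. The 6 loop letters alone, without a stem, occurred in 34.4% of 5′ UTRs and 72.8% of 3′ UTRs. No hairpin of this strict form was found in the UTRs of Trf, Steap3, Cp, Heph, Aco1 or Ireb2, which says only that these letters and pairs are not there.

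The libraries held from 14548336 to 17124327 counts on the low-Mn diet and from 18446701 to 21277469 on the normal-Mn diet. They had the markers of cerebellum. The summed level of 9 granule neuron markers lay between 4952 and 5258 CPM (counts-per-million values, scaled by TMM factors) in all 6 libraries, led by Cbln3 and Zic1, and that of 8 Purkinje neuron markers between 8980 and 9668 CPM, led by Itpr1 and Car8. Of 16123 genes tested with edgeR's quasi-likelihood test, 96 (0.595%) passed an adjusted p of 0.05 in either direction. Normal-Mn replicate 2 stood farthest from the other libraries of its diet, with chi-square values of 7.6 and 6.74 per degree of freedom in comparison with them, where the remaining pairs of one diet lay between 3.63 and 4. Without it, no member passed edgeR's adjusted test, and the log2 fold changes were -0.14 for Trf, 0.01 for Tfrc, -0.07 for Steap3, -0.09 for Fth1, -0.07 for Ftl1, 0.03 for Slc40a1, -0.02 for Cp, -0.04 for Heph, 0.11 for Aco1 and 0.0029 for Ireb2.

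The 10 genes covered a wide range of levels. The ferritins and transferrin were by far the most abundant, and the exporters and the reductase were near the bottom. Levels of different genes are compared per kilobase of exon, in TPM (transcripts-per-million values), as means ± SD over the 3 normal-Mn mice. Fth1 stood at 1144 ± 4.83 TPM, Ftl1 at 712 ± 10.7 TPM and Trf at 580 ± 11.1 TPM. Tfrc followed at 76.4 ± 2.24 TPM, below all of these in every library, and then the sensors, Ireb2 at 37.8 ± 1.54 TPM and Aco1 at 27.3 ± 2.51 TPM. The copper ferroxidase Cp reached 7.90 ± 0.618 TPM.

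**Figure D1:**
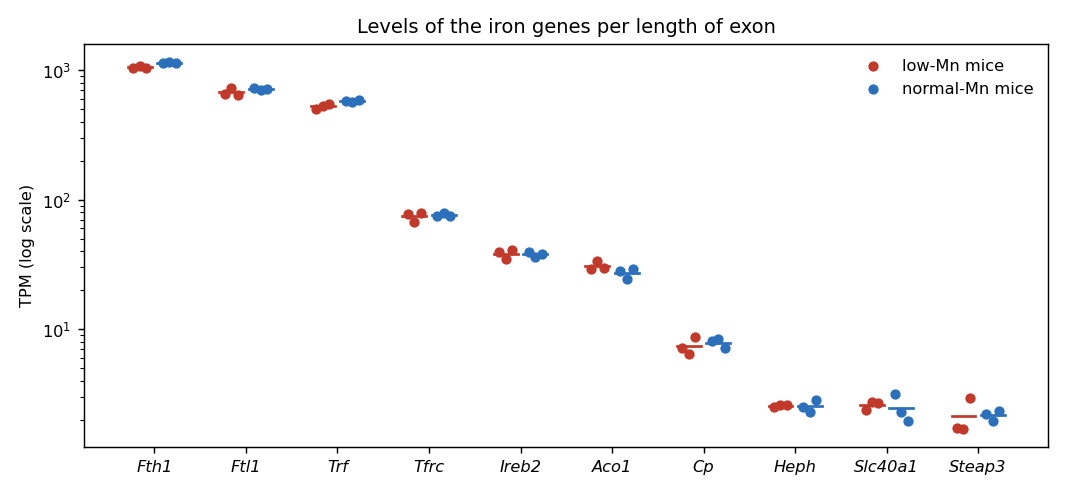
Level of each iron gene in TPM (log scale) in the 6 cerebella, red for low-Mn and blue for normal-Mn mice, with bars at the mean of 3 mice. Fth1, Ftl1 and Trf lie between 504 and 1149 TPM, Tfrc between 67.8 and 79.0 TPM, and Heph, Slc40a1 and Steap3 between 1.71 and 3.16 TPM.

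At the low end, Heph (2.54 ± 0.266 TPM), Slc40a1 (2.48 ± 0.614 TPM) and Steap3 (2.16 ± 0.198 TPM) overlapped over the 6 libraries, so the order of these 3 was not resolved. The 7 genes above them kept their order in every library. With the length of the longest annotated transcript in place of all exons, Slc40a1 stood at 4.57 TPM, above Heph at 3.31 TPM, and Cp stood at 13.3 TPM. The order of the 7 most abundant genes was the same with that length. In counts, the depth behind a gene ran from a mean of 65.0 per library for Steap3 to 20354 for Fth1.

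The main comparison asked whether 2 weeks on the low-Mn diet changed the mRNA of these genes. None of the 10 passed edgeR's test with adjustment over all genes, where 0.595% of genes did so in either direction and 0.180% as lower on the low-Mn diet. At an unadjusted p of 0.05 in edgeR, 2 of the 10 (Trf and Fth1) were lower and none was higher, beside 5.58% of all genes that were lower and 6.54% that were higher at that threshold. The same 2 passed as lower with DESeq2, which gave an adjusted p for 6 of the 10 (not for Steap3, Slc40a1, Cp and Heph) and called 0.700% of 7144 genes lower. They also passed with edgeR without a filter on low counts, where 0.764% of 26954 genes were lower, and none of the 10 passed with limma-voom. The fold changes were small. Of the 10 genes, 7 had a negative and 3 a positive log2 fold change, with a median log2 fold change (low-Mn relative to normal-Mn) of -0.04 beside -0.003 over all tested genes.

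**Figure D2:**
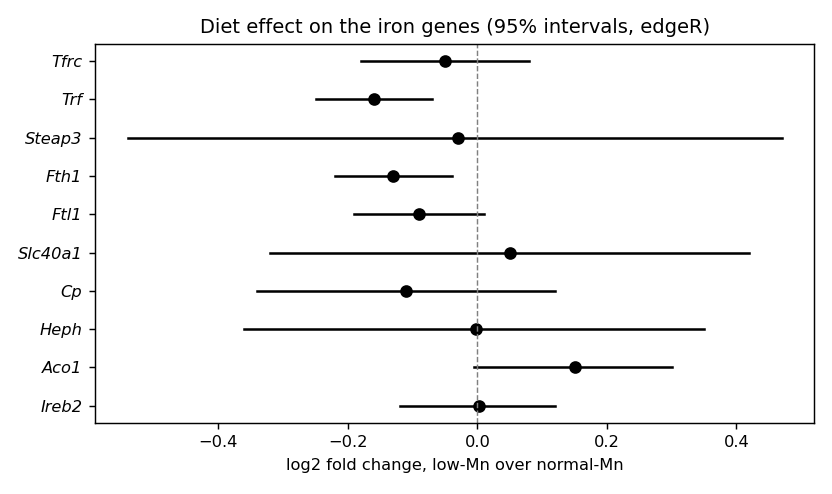
Log2 fold change of each iron gene, low-Mn against normal-Mn, with its 95% interval from edgeR. The intervals of Trf (-0.25 to -0.07) and Fth1 (-0.22 to -0.04) lie below 0, the others include 0, and that of Steap3 is the widest.

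The data limit how large a change could have been missed. The 95% interval of 9 of the 10 genes lay within 0.5 of 0 on the log2 scale, and that of the remaining gene, Steap3, within 1. Among all tested genes, 68.6% had an interval within 0.5 of 0.

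Trf (ENSMUSG00000032554, chr9:103204001-103230444, minus strand) encodes transferrin, the carrier of iron and of part of the manganese in blood and brain fluid. Its level was 486, 505 and 526 CPM in the 3 low-Mn mice and 552, 582 and 565 CPM in the 3 normal-Mn mice. All low-Mn mice lay below all normal-Mn mice, and low-Mn replicate 1 was the lowest. The means were 506 ± 20.4 and 566 ± 15 CPM (SD, n = 3 each), a change in mean of -10.7% with a 95% interval from -16.1% to -4.92%. The log2 fold change was -0.16 (SE 0.0434), and in edgeR the unadjusted p was 0.00124 and the adjusted p 0.0969, short of the threshold. DESeq2 gave an adjusted p of 0.00549 and edgeR without a filter 0.0100, both past it. With single libraries left out, the log2 fold change stayed between -0.19 and -0.13 and edgeR's adjusted p ran from 0.0780 to 0.335.

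Much of the Trf sequence is annotated a second time. Of its exonic 50-base words, 58.5% also occur in Gm20425, an annotated protein-coding gene that overlaps most of Trf (chr9:103190208-103230307). The counts given to Gm20425 were 1.24% to 2.07% of those given to Trf. After adding the counts of such genes to those of Trf, its log2 fold change was still -0.16, with an edgeR adjusted p of 0.0967.

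The markers of oligodendrocytes were read beside Trf. Of 23 oligodendrocyte and myelin markers, 22 had a negative log2 fold change (median -0.13), 14 were lower at an unadjusted p of 0.05 in edgeR, and 2 passed its adjusted test. Of all tested genes, 50.8% had a negative log2 fold change, 5.58% were lower at that unadjusted p and 0.180% passed as lower. Among the markers that passed was Gjc3, a glial connexin, with a log2 fold change of -0.24 (adjusted p = 0.0403, edgeR). Together the 23 markers, of which none was at 0, summed to 7680 to 8002 CPM on the low-Mn diet and 8197 to 9073 CPM on the normal-Mn diet, without overlap, and the low-Mn mean was 90.5% of the normal-Mn mean. Per 1000 CPM of these markers, Trf stood at 63.2, 65.7 and 65.8 CPM in the low-Mn mice and 67.3, 64.1 and 66.1 CPM in the normal-Mn mice. Set against the markers in this way, Trf overlapped between the diets, with means of 64.9 ± 1.46 and 65.9 ± 1.61. In whole tissue, fewer cells of a type and less RNA per cell cannot be told apart, and the part of the oligodendrocyte markers in the Trf result was not tested.

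**Figure D3:**
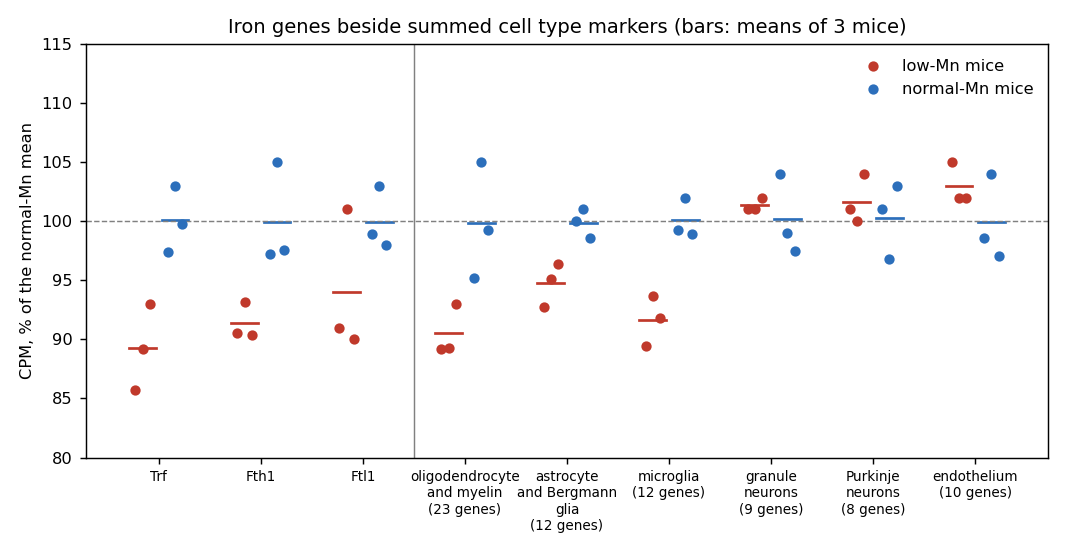
Levels in each cerebellum as a percent of the normal-Mn mean (CPM), for Trf, Fth1 and Ftl1 on the left and for summed markers of 6 cell types on the right, red for low-Mn and blue for normal-Mn mice, bars at the mean of 3 mice. The low-Mn mice lie below all normal-Mn mice for Trf, Fth1 and the oligodendrocyte, astrocyte and microglia markers, while the neuron and endothelium markers overlap. Not drawn are the choroid plexus, meninges and red blood cell markers, with low-Mn means at 85.7%, 83.7% and 111% of the normal-Mn means.

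Markers of other cell types were read in the same way. The 12 astrocyte and Bergmann glia markers, led by Slc1a3 and Slc1a2, summed to 94.7% of the normal-Mn mean on the low-Mn diet (4367 to 4543 against 4647 to 4772 CPM), and none passed edgeR's adjusted test, with 3 lower at an unadjusted p of 0.05 (Gfap, Sox9 and Slc4a4) and 1 passing each of DESeq2 and limma-voom. The 12 microglia markers, Csf1r among them, summed to 91.6% (191 to 201 against 212 to 218 CPM), with none passing edgeR or limma-voom, none of the 2 with an adjusted p in DESeq2 passing there, and 3 lower at an unadjusted p of 0.05 in edgeR (Cx3cr1, Tmem119 and Csf1r). Endothelium (103%, led by Slc2a1 and Slco1a4), granule neurons (102%) and Purkinje neurons (102%) overlapped between the diets. No marker of these 3 lists passed edgeR's adjusted test, where 1, 1 and 0 were higher at an unadjusted p of 0.05 (Pecam1 and Neurod1), and of the genes of these 3 lists with an adjusted p in DESeq2 (4, 9 and 8) Neurod1, a transcription factor of granule neurons, passed there. Of all tested genes, 5.58% were lower and 6.54% higher at an unadjusted p of 0.05 in edgeR. The genes in brackets and Neurod1 are named after their values were seen. The part of the astrocyte and microglia markers in the results on the iron genes was not tested either.

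Tissue that adjoins the cerebellum can be taken along in a dissection. Of 14 choroid plexus markers, 13 had a negative log2 fold change (median -0.28), 11 were lower at an unadjusted p of 0.05 in edgeR and 7 were lower without overlap. Of all tested genes, 50.8% had a negative log2 fold change, 5.58% were lower at that unadjusted p and 8.32% were lower without overlap. Kl (-0.51, adjusted p = 0.00183) and Sostdc1 (-0.51, adjusted p = 0.0362) passed edgeR's adjusted test, and 3 of the 6 with an adjusted p in DESeq2 passed there. Over all genes, 0.180% passed as lower in edgeR and 0.700% in DESeq2. The sums of the list, most of which is Ttr, overlapped (2337 to 2886 against 2705 to 3288 CPM), while the sums without Ttr, taken after the values were seen, did not (327 to 378 against 408 to 508 CPM). The 10 markers of meninges and fibroblasts all had a negative log2 fold change (median -0.25). Of these 10, 7 were lower at an unadjusted p of 0.05 in edgeR and 5 were lower without overlap. They summed to 337 to 395 against 415 to 466 CPM, a low-Mn mean of 83.7% of the normal-Mn mean. Igf2 alone passed edgeR's adjusted test (-0.26, adjusted p = 0.0432). The choroid plexus is known to make transferrin and ceruloplasmin, and the part of these markers in the results on Trf and Cp was not tested. Red blood cell genes, led by Hbb-bs and Hba-a2, ranged from 331 to 764 CPM in the low-Mn mice and from 390 to 558 CPM in the normal-Mn mice, and none of the 6 tested passed edgeR or limma-voom or reached an unadjusted p of 0.05 in edgeR. DESeq2 gave an adjusted p for 4 of them, none past the threshold.

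Tfrc (ENSMUSG00000022797, chr16:32608920-32632794, plus strand) encodes the receptor that takes up iron-loaded transferrin, and its mRNA carries the 4 hairpins printed above. Its level was 140, 121 and 142 CPM in the low-Mn mice and 133, 150 and 134 CPM in the normal-Mn mice. The diets overlapped, with low-Mn replicate 2 the lowest and normal-Mn replicate 2 the highest. The means of 134 ± 11.4 and 139 ± 9.80 CPM gave a log2 fold change of -0.05 (95% interval -0.18 to 0.08, edgeR adjusted p = 0.802). A change of the receptor mRNA beyond -11.6% or 5.38% lay outside that interval. Without low-Mn replicate 2 the log2 fold change was 0.02, and without normal-Mn replicate 2 it was 0.01.

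The ratio of carrier to receptor also overlapped. Trf CPM per Tfrc CPM was 3.48, 4.17 and 3.71 in the low-Mn mice and 4.14, 3.87 and 4.23 in the normal-Mn mice.

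Steap3 (ENSMUSG00000026389, chr1:120190757-120272705, minus strand) encodes the ferrireductase that prepares iron from transferrin for transport out of the endosome. It was measured at 2.85, 2.82 and 4.93 CPM in the low-Mn mice and 3.60, 3.43 and 3.85 CPM in the normal-Mn mice. A single mouse, low-Mn replicate 3, was the highest of the 6, and the other low-Mn mice were the lowest. The log2 fold change was -0.03, with a 95% interval from -0.54 to 0.47 (edgeR adjusted p = 0.973). Without low-Mn replicate 3 it was -0.35, and without low-Mn replicate 1 it was 0.11, so that the direction rested on single mice. At a lowest count of 41.0 in a library, Steap3 was the least precise of the 10.

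Fth1 (ENSMUSG00000024661, chr19:9980598-9985098, plus strand) encodes the ferritin heavy chain, which oxidizes iron for storage. Its level was 1056, 1087 and 1055 CPM in the low-Mn mice and 1134, 1227 and 1139 CPM in the normal-Mn mice. The low-Mn mice all lay below the normal-Mn mice, and normal-Mn replicate 2 was the highest. With means of 1066 ± 18.3 and 1167 ± 52.4 CPM (SD, n = 3 each), Fth1 changed in mean by -8.65% (95% interval -14.1% to -2.81%). Its log2 fold change of -0.13 (SE 0.0429) had an unadjusted p of 0.00641 and an adjusted p of 0.201 in edgeR, short of the threshold. DESeq2 gave an adjusted p of 0.0246 and edgeR without a filter 0.0446. Leaving out normal-Mn replicate 2 gave a log2 fold change of -0.09, the smallest of the 6 libraries left out in turn, and edgeR's adjusted p ran from 0.202 to 0.481 over them.

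Fth1 and Trf were thus the 2 members whose diets did not overlap, both lower, where 8.32% of all tested genes had every low-Mn library below every normal-Mn library. No member had the opposite arrangement, which 8.79% of all tested genes had. In TPM, where each library is scaled by counts per length, Fth1 also separated the diets, at 1047, 1085 and 1047 against 1141, 1149 and 1141 TPM.

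**Figure D4:**
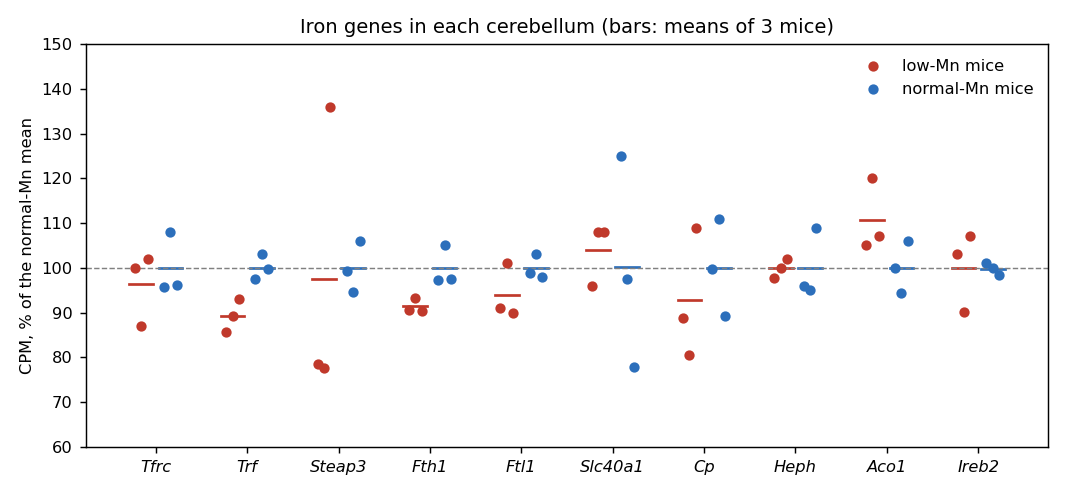
CPM of each iron gene in the 6 cerebella as a percent of its normal-Mn mean, red for low-Mn and blue for normal-Mn mice, bars at the mean of 3 mice. Trf (85.7% to 93.0%) and Fth1 (90.4% to 93.2%) lie below every normal-Mn mouse in all 3 low-Mn mice, while the diets overlap for the other 8 genes.

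Ftl1 (ENSMUSG00000050708, chr7:45457944-45459884, minus strand) encodes the ferritin light chain, which helps to form the iron core. It was measured at 255, 282 and 252 CPM in the low-Mn mice and 277, 289 and 275 CPM in the normal-Mn mice. Low-Mn replicate 2 lay among the normal-Mn mice, and the other low-Mn mice lay below them. The log2 fold change was -0.09 (SE 0.0479, 95% interval -0.19 to 0.01), with an adjusted p of 0.452 in edgeR, and it was -0.14 without low-Mn replicate 2. Of its exonic 50-base words, 58.4% occur in 17 other annotated genes, with processed pseudogenes and microRNA genes among them, so that its counts may be split. Ftl1-ps1, annotated as protein-coding, shares the most of these words (47.3%). The 5 genes that each shared at least 10% of these words had 0.817% to 1.02% of the counts of Ftl1.

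The ratio of heavy to light chain mRNA was compared as well. Fth1 CPM per Ftl1 CPM was 4.14, 3.86 and 4.18 in the low-Mn mice and 4.09, 4.25 and 4.15 in the normal-Mn mice, with means of 4.06 ± 0.178 and 4.16 ± 0.0795 and overlapping diets. Both ferritin mRNAs carry the 5′ UTR hairpin, through which iron acts mainly on translation, and protein was not measured in these libraries.

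Slc40a1 (ENSMUSG00000025993, chr1:45908068-45926523, minus strand) encodes ferroportin, the iron exporter. Its level was 6.28, 7.08 and 7.03 CPM in the low-Mn mice and 8.14, 6.38 and 5.09 CPM in the normal-Mn mice. The normal-Mn mice spanned all of the low-Mn mice. The log2 fold change of 0.05 had a 95% interval from -0.32 to 0.42 (edgeR adjusted p = 0.948), and it ranged from -0.10 to 0.24 when normal-Mn replicate 3 or normal-Mn replicate 1 was left out.

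Cp (ENSMUSG00000003617, chr3:19957054-20009145, plus strand) encodes ceruloplasmin, a copper ferroxidase that oxidizes iron leaving astrocytes. It stood at 19.8, 17.9 and 24.3 CPM in the low-Mn mice and 22.2, 24.7 and 19.8 CPM in the normal-Mn mice. The diets overlapped almost fully. The log2 fold change was -0.11 (95% interval -0.34 to 0.12, edgeR adjusted p = 0.765), between -0.24 without low-Mn replicate 3 and -0.02 without either low-Mn replicate 2 or normal-Mn replicate 2.

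Heph (ENSMUSG00000031209, chrX:96455359-96574485, plus strand) encodes hephaestin, the membrane-bound relative of ceruloplasmin. Its level was 5.58, 5.70 and 5.80 CPM in the low-Mn mice and 5.48, 5.43 and 6.23 CPM in the normal-Mn mice. Here too the low-Mn mice lay within the normal-Mn range. The means of 5.69 ± 0.109 and 5.71 ± 0.452 CPM gave a change of -0.198%, with a 95% interval from -21.8% to 27.4% (edgeR adjusted p = 0.997).

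Aco1 (ENSMUSG00000028405, chr4:40143081-40198338, plus strand) encodes iron regulatory protein 1, which is the cytosolic aconitase when it holds an iron-sulfur cluster. It was measured at 38.0, 43.3 and 38.5 CPM in the low-Mn mice and 35.9, 33.9 and 38.1 CPM in the normal-Mn mice. Low-Mn replicate 2 was well above the rest, while low-Mn replicate 1 lay just under normal-Mn replicate 3. The mean was 10.8% higher on the low-Mn diet (95% interval -0.344% to 23.2%), a log2 fold change of 0.15 (SE 0.0734). In edgeR its unadjusted p was 0.0572 and its adjusted p 0.429. Without low-Mn replicate 2 the log2 fold change was 0.09, and without normal-Mn replicate 2 it was 0.11.

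Ireb2 (ENSMUSG00000032293, chr9:54863789-54912530, plus strand) encodes iron regulatory protein 2, which is degraded when iron is plentiful. Its level was 108, 94.8 and 113 CPM in the low-Mn mice and 107, 105 and 104 CPM in the normal-Mn mice. The normal-Mn mice lay inside the low-Mn range. The log2 fold change was 0.0017, with a 95% interval from -0.12 to 0.12 (edgeR adjusted p = 0.994). Aco1 CPM per Ireb2 CPM overlapped, at 0.352, 0.457 and 0.340 in the low-Mn mice and 0.337, 0.322 and 0.368 in the normal-Mn mice.

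Read by the hairpins, the 4 members that carry one had log2 fold changes of -0.13 (Fth1), -0.09 (Ftl1), -0.05 (Tfrc) and 0.05 (Slc40a1), with none past edgeR's adjusted test. For 6 further mRNAs known for an iron-responsive element, Slc11a2 and Epas1 among them, the median log2 fold change was 0.10. The strict search listed no site for any of these 6 mRNAs. It listed a site only where 30 bases lay unbroken in the UTR and the genome. A gene without a listed site can therefore still carry the element. None of the 6 passed edgeR or limma-voom, and none of the 4 with an adjusted p in DESeq2 passed there. At an unadjusted p of 0.05 in edgeR, Slc11a2 was higher and Epas1, a hypoxia-inducible transcription factor, was lower with a log2 fold change of -0.18 (adjusted p = 0.188, edgeR). At that threshold 6.54% of all tested genes were higher and 5.58% lower.

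The wider set of iron genes had a median fold change near that of all genes. A list of 49 further genes of iron and heme handling was used, of which 48 were in the table and 39 had enough counts to be tested. None of the 39 passed edgeR or limma-voom, and none of the 19 for which DESeq2 gave an adjusted p passed there. At an unadjusted p of 0.05 in edgeR, 3 of the 39 were higher and 2 lower, beside 6.54% and 5.58% of all tested genes, and the median log2 fold change was -0.02, with 20 of the 39 negative. Without overlap between the diets, 8 of the 39 were lower and 3 higher on the low-Mn diet, beside 8.32% and 8.79% of all tested genes. Summed over the 48 genes, the level was 2080 to 2117 CPM on the low-Mn diet and 2113 to 2157 CPM on the normal-Mn diet, while the 10 members summed to 2116 to 2169 and 2278 to 2428 CPM. Fth1 and Trf made up most of the latter sum.

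**Figure D5:**
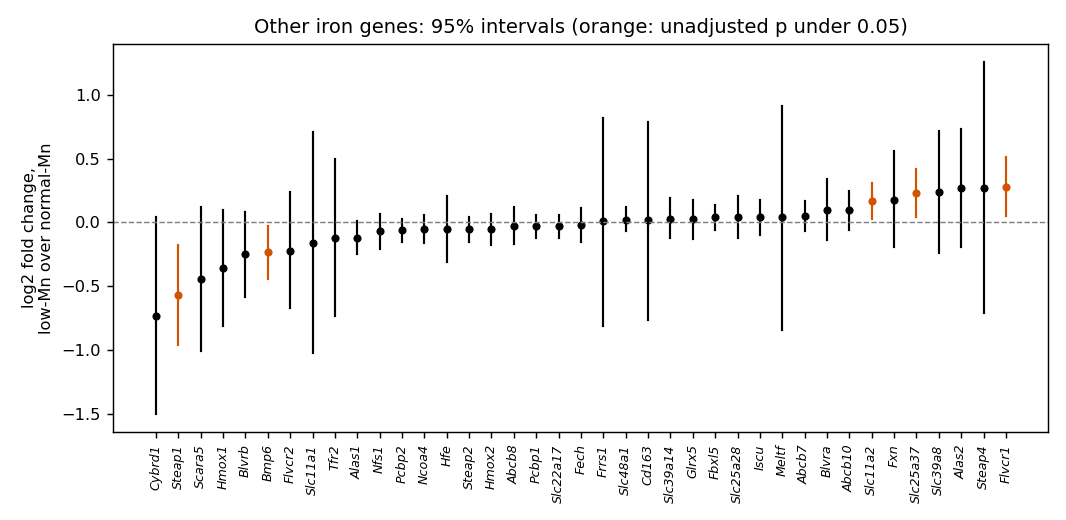
Log2 fold change (low-Mn against normal-Mn) of the 39 tested further genes of iron and heme handling, sorted, with 95% intervals from edgeR. Orange marks the 5 genes with an unadjusted p under 0.05 (Steap1 and Bmp6 lower, Slc11a2, Slc25a37 and Flvcr1 higher), and none passed after adjustment.

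The lowest p belonged to Steap1, a relative of Steap3 in the STEAP family of metalloreductases. It was measured at 4.48, 3.57 and 3.64 CPM in the low-Mn mice and 5.94, 5.90 and 5.53 CPM in the normal-Mn mice, all low-Mn mice below all normal-Mn mice. Its log2 fold change was -0.57 (SE 0.186), with an adjusted p of 0.200 in edgeR. Slc11a2, the divalent metal transporter that carries both iron and manganese, was at 46.6, 45.2 and 46.9 CPM against 40.6, 38.3 and 44.2 CPM. All 3 low-Mn mice were above the normal-Mn mice, with a log2 fold change of 0.17 (SE 0.0673, adjusted p = 0.290, edgeR). Slc25a37, the mitochondrial iron importer mitoferrin, had means of 26.4 ± 0.811 and 22.5 ± 2.40 CPM and a log2 fold change of 0.23 (adjusted p = 0.294, edgeR). Flvcr1, described as an exporter of heme and a carrier of choline, had means of 23.5 ± 1.42 and 19.3 ± 3.37 CPM and a log2 fold change of 0.28 (adjusted p = 0.299, edgeR).

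A few more of the wider set are named after their values were seen. The metal importers Slc39a14 and Slc39a8, which take up manganese as well as iron and zinc, had log2 fold changes of 0.03 (95% interval -0.12 to 0.19) and 0.24 (-0.24 to 0.72). Bmp6, the signal that raises hepcidin in liver, had -0.23 (adjusted p = 0.322, edgeR) with overlapping diets. Ncoa4, the receptor that sends ferritin to lysosomes, had -0.05, and Fbxl5, which marks Ireb2 protein for degradation, had 0.04. Hamp, which encodes hepcidin, Ftmt, the mitochondrial ferritin, and Timd2 had 0 counts in all 6 libraries.

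For the members with the smallest p, the genes whose levels followed them most closely over the 6 libraries were taken from 11685 genes with a mean of at least 100 counts. The measure was Pearson's r of log2 CPM, as a description over 6 libraries that share the 2 diets. Trf was most like Serpine2 (r = 0.998), Dchs1 (0.995) and Prex2 (0.991). Fth1 was most like Ldhb (0.993), Phb (0.991) and Mapk8ip1 (0.989), and Aco1 was most like Snx16 (0.991), Manf (0.990) and Sdccag8 (0.984). None of these 9 genes passed edgeR's adjusted test, with adjusted p from 0.179 to 0.758. After the mean of each diet was taken out, r was still 0.97 or more. The genes were picked from 11685 for a high r over these same 6 libraries, so neither r tells whether the likeness would recur.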

How the data were processed

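The authors isolated RNA from 1 cerebellum per mouse, made libraries of polyadenylated RNA and mapped paired reads with STAR. From the submitters' processing notes come RSEM, FastQC, mm10 and DESeq2, and tool versions and the annotation release were not given in the sources used here. Values deposited by the authors are expected counts that were not normalized, of which 7.12% to 7.74% were not whole numbers. Samples were grouped by the diet in their labels. The 3 low-Mn columns are named by a number alone and were read as the low-Mn replicates because no other samples remain. The 92 spike-in entries were 0 throughout and were left out. Of 53715 genes, 53620 matched GENCODE M21.

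Expected counts were rounded and tested in R 4.3.3 with edgeR 4.0.16 (filterByExpr at a count of 10 and a total of 15, TMM factors, glmQLFit and glmQLFTest, Benjamini-Hochberg adjustment over 16123 genes, threshold 0.05). The same test was also run on simulated counts. The changes planted there were larger than those of the iron genes, so that run does not bear on changes of their size. Intervals are 95% intervals of the log2 fold change and cover the spread between these libraries. TPM used the union of annotated exons. Alternatives were DESeq2 1.42.0, limma-voom (limma 3.58.1), RLE and upper quartile factors, no filter, a mean of at least 100 counts, unrounded counts, the replicate number as a block, counts summed with genes that share at least 10% of 50-base words, the longest transcript for TPM, and each replicate left out. The principal transcript by APPRIS and the unadjusted p were added after seeing the data.

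The members and gene lists came from general knowledge and were chosen with earlier results of these data known. Named were the 10 members, the 4 further iron genes with the smallest p, the markers that passed or else the 2 with the most counts of each list, and the 3 genes most like each of the 3 members with the smallest p. Hjv of the wider iron list and Ahsp of the red blood cell list were not matched by symbol. The values of a few single genes of these lists are not reported here.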

Additional observations from a re-analysis of the deposited data

How the results depend on the processing

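All 10 iron genes stayed short of edgeR's adjusted threshold with each of the 6 libraries left out in turn, with RLE or upper quartile factors, unrounded counts, a mean of at least 100 counts (for the 9 genes that reach it, all but Steap3), summed counts of genes that share sequence, and limma-voom. The count was 2 (Trf and Fth1) with DESeq2 (6 genes with an adjusted p), 2 without a filter on low counts and 2 at an unadjusted p of 0.05. For the wider iron genes it was 5 at an unadjusted p and 0 elsewhere, with DESeq2 giving an adjusted p for 19 of the 39. The causes were not tested. Over all genes the count of 96 became 63 with limma-voom, 424 without a filter and 1954 at an unadjusted p, and 37 to 93 with a library left out (47 when low-Mn replicate 1 was dropped, 37 when low-Mn replicate 2 was, and 45 when normal-Mn replicate 2 was). Deviations from the diet means correlated at 0.02, -0.09 and 0.08 between same-numbered mice, and at -0.11 to 0.09 between mice of unlike number. The replicate numbers thus gave no sign of a pairing of the diets, though so few mice cannot exclude one. With the replicate number as a block, 128 genes and 0 of the 10 iron genes passed.

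Changes of sign were limited to genes with a log2 fold change between -0.05 and 0.05 in the main fit. With a library left out, the values of Steap3 and Slc40a1 moved farther from 0 on both sides. Ireb2 turned to -0.0004 with limma-voom, -0.0022 with at least 100 counts, -0.01 without a filter, -0.0021 with the replicate block and -0.01 with upper quartile factors, and Heph to 0.0049 with limma-voom. With a library left out, the range was -0.09 to 0.02 for Tfrc, -0.35 to 0.11 for Steap3, -0.10 to 0.24 for Slc40a1, -0.04 to 0.06 for Heph and -0.05 to 0.07 for Ireb2. Trf, Fth1, Ftl1, Cp and Aco1 kept their sign under every alternative run.

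Levels per length depended on the length taken. With the longest annotated transcript, normal-Mn means in TPM were 1550 for Fth1, 793 for Ftl1, 604 for Trf, 50 for Ireb2, 13.3 for Cp, 4.57 for Slc40a1, 3.31 for Heph and 1.93 for Steap3. With the principal transcript, they were 1905 for Fth1, 538 for Trf, 69.4 for Tfrc, 44.5 for Ireb2, 23.0 for Aco1, 13.5 for Cp, 4.74 for Slc40a1, 2.94 for Heph and 1.72 for Steap3. Depth limits Steap3, Heph and Slc40a1 most, with a lowest count in a library of 41.0, 83.0 and 94.0.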
